A study of Mus musculus with 2 samples.

Results

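The anti-apoptotic branch of the Bcl2 family was followed through the small intestine of 2 mice at single-cell resolution. The 6 genes were Bcl2, Bcl2l1 (the gene of Bcl-xL), Bcl2l2 (Bcl-w), Mcl1, Bcl2a1b and Bcl2a1d (copies of A1). They were chosen by name and not by their measured values, and all 6 had a row in both count tables, which list 31053 genes. The Tg mouse was Mdm2+/- Cag-CreERTg and the FMTg mouse was Mdm2FM/- Cag-CreERTg. Both were C57BL/6j mice aged 60 days that had received 1 tamoxifen injection of 6 mg per 40 g, and the tissue was taken 24 hours later. Both mice carried 1 null allele of Mdm2 and the inducible Cre, so the Tg mouse is a heterozygous control and not a wild type. The Cag promoter drives Cre broadly, and recombination was not measured in any cell class. By the title of the series, the FMTg tissue lost Mdm2 and activated p53, whereas the Tg tissue retained Mdm2. With 1 library per genotype there was no replicate, so no difference between the libraries was tested. All intervals below cover counting error at 95% only, and differences between mice, tissue segments and cell preparations cannot be told apart from genotype.

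The proteins of the 6 genes sit on the outer mitochondrial membrane and the endoplasmic reticulum and hold the pore-forming effectors Bax and Bak in check. BH3-only proteins, among them the p53 targets Puma (Bbc3) and Noxa (Pmaip1), bind the survival proteins and free the effectors. In textbook accounts, lymphocytes rely on Bcl2, red cell precursors on Bcl-xL, and many cell types, neutrophils above all, on the short-lived Mcl1 protein. A1 is carried in the mouse by several near-identical gene copies that are used mainly in blood cells.

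The libraries were of similar size. The Tg table held 6270 barcodes and 54013005 UMIs (unique molecular identifiers, each standing for 1 captured RNA molecule), and the FMTg table held 6382 barcodes and 49805718 UMIs. After filters, 2913 Tg cells and 2675 FMTg cells were kept. A limit of 25% mitochondrial UMIs removed 47.0% of the Tg and 52.5% of the FMTg barcodes. Of the barcodes with mostly epithelial marker genes, 75.4% and 78.4% lay above that limit, against 16.7% and 26.1% on the immune side. Mdm2, the targeted gene, was at 93.0 CPM (counts-per-million, here of UMIs) in all kept Tg cells and at 142 CPM in the FMTg cells. It is itself a p53 target, and the sources used here do not give its deleted stretch, so these counts do not check the labels. The libraries shared 14 barcodes, 4 of them among the kept cells. Cells were clustered without use of the labels and named from marker genes into 13 classes, 5 epithelial and 8 immune, and 4 clusters stayed unnamed. Levels are given as CPM of the class, and a difference was called when the ratio of the FMTg to the Tg level passed 1.5-fold in a class with at least 20 UMIs of the gene. Because 3-prime counting samples 1 end of each transcript, and lengths and capture differ, levels are compared between classes and libraries and not between genes.

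Of the 78 pairs of a gene and a class, 42 had at least 20 UMIs. Of these, 16 passed 1.5-fold, and in 11 the interval of the ratio excluded equal levels, 5 higher and 6 lower in FMTg. Those 11 lay in 5 classes. Bcl2l1 and Mcl1 rose in enterocyte-like cells, Bcl2 and Mcl1 fell in naive-type T-like cells, and Bcl2a1d, just past 1.5-fold, rose in B-like cells. In germinal-centre-type B-like cells Bcl2 fell while Bcl2l1 and Bcl2a1b rose, and in the few dendritic-like cells Mcl1, Bcl2a1b and Bcl2a1d fell. By the fold alone, 16.0%, 11.1%, 6.01%, 9.47% and 13.3% of all measured genes were higher in these classes, in the order given. Lower were 11.6%, 16.6%, 10.8%, 16.9% and 39.9%. The share of all genes passing both fold and interval was not computed, so the 11 pairs are a count and not a result about the family. In all kept cells together 0 of the 6 passed 1.5-fold, where 12.1% of all 14110 genes were higher and 9.75% were lower by that rule.

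The order of the classes differed from gene to gene, as the plot of levels by class shows. For Bcl2 the first 3 classes were intraepithelial-type T or NK-like, naive-type T-like and B-like cells in both libraries, and no interval overlapped the next. For Mcl1 neutrophil-like cells came before macrophage-like cells in both libraries, again without overlap, and below them most neighbours overlapped. Bcl2l1 was highest in neutrophil-like, macrophage-like, enterocyte-like and goblet-like cells of Tg (40.9, 36.8, 32.5 and 30.4 CPM), whose intervals overlapped, and then dropped to 17.5 CPM in intraepithelial-type cells. In FMTg it was highest in enterocyte-like, enteroendocrine-like and goblet-like cells (64.8, 59.0 and 45.0 CPM), with overlapping neighbours. Bcl2l2 had no neighbours whose intervals were apart in either library, between 23.8 CPM in Tg tuft-like cells and 0 UMIs in naive-type T-like cells. Bcl2a1b and Bcl2a1d were highest in dendritic-like cells of Tg, apart from the next class, and in FMTg the highest classes overlapped.

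**Figure D1:**
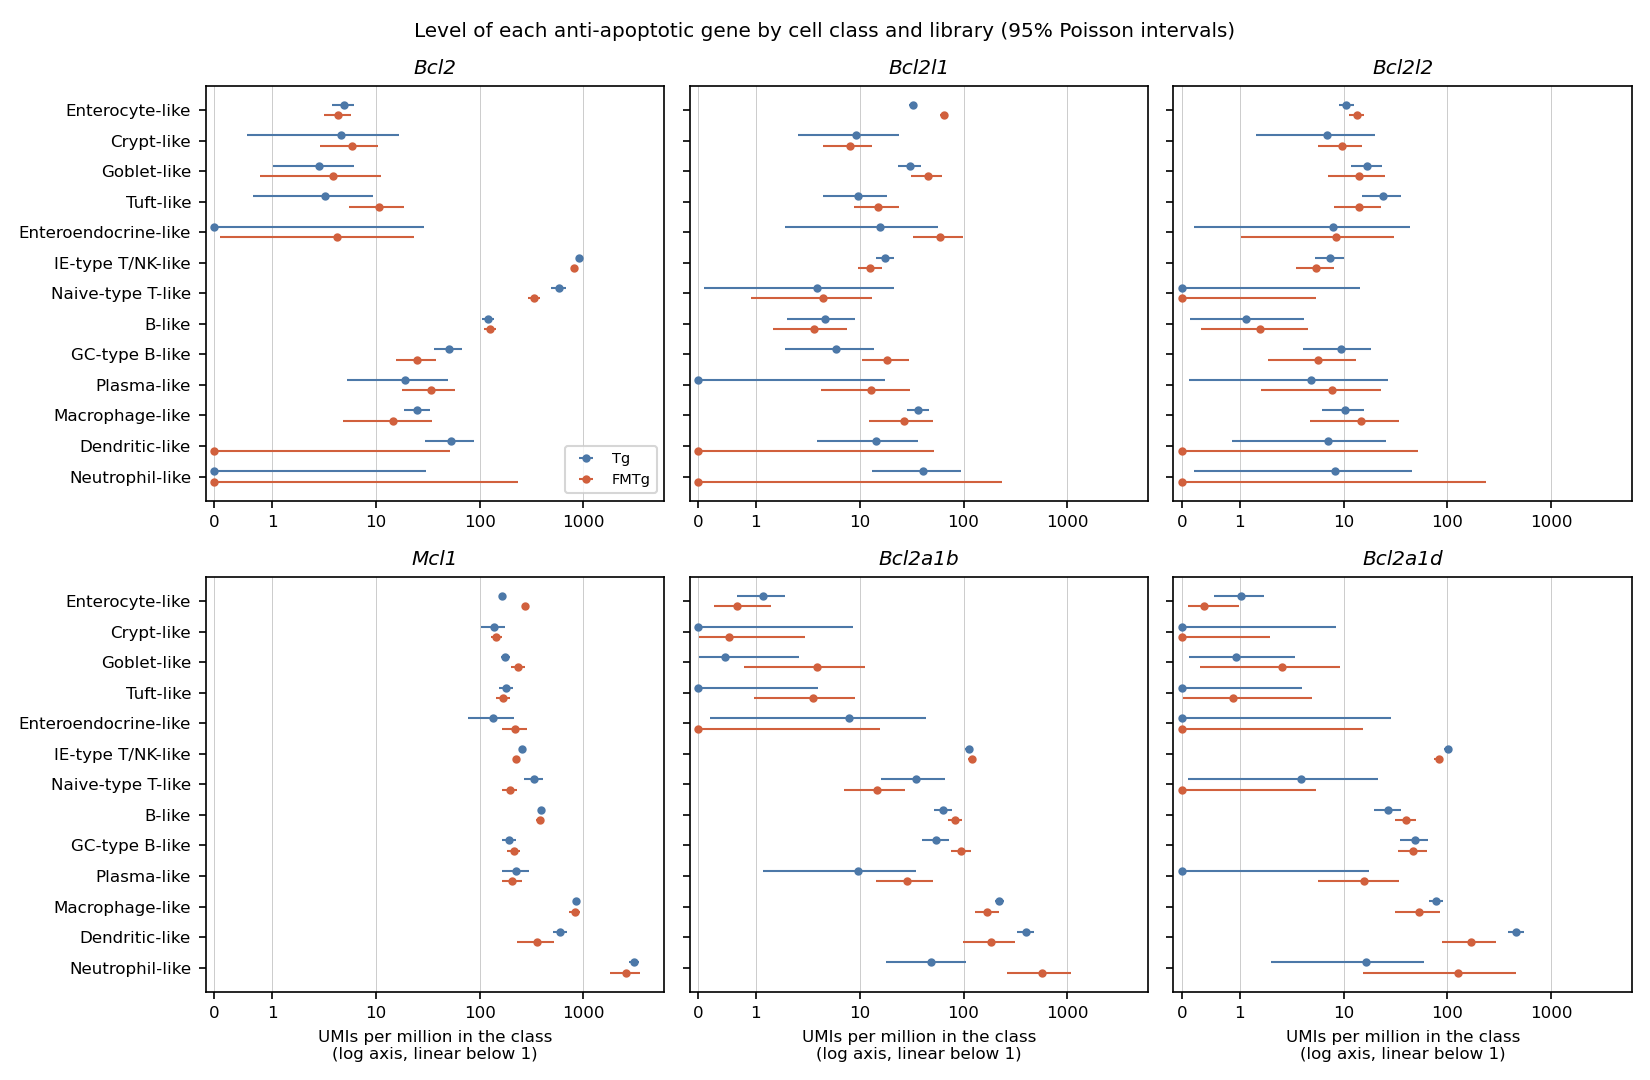
Level of each gene in CPM (horizontal axis, logarithmic above 1 and linear below) in 13 cell classes of the Tg (blue) and FMTg (red) library, with 95% Poisson intervals (IE, intraepithelial; GC, germinal-centre). Bcl2 is highest in intraepithelial-type T or NK-like cells of both libraries (910 and 813 CPM), and Mcl1 is highest in neutrophil-like cells (3069 and 2546 CPM).

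The genes lie on separate chromosomes apart from the A1 copies. In the GENCODE mouse annotation, release 21 (build GRCm38), Bcl2 occupies chr1:106538178-106714274 on the minus strand and Mcl1 chr3:95658788-95663176 on the plus strand. Bcl2l1 lies at chr2:152780668-152831728 (minus) and Bcl2l2 at chr14:54883377-54888234 (plus). Bcl2a1b lies at chr9:89199209-89207827 (plus) and Bcl2a1d at chr9:88723285-88731914 (minus). Bcl2l2 shares its strand and bases with the read-through gene model Gm20521, which had 0 UMIs in both libraries. Bcl2a1b likewise shares bases with Gm29094, which had 1 UMI in each. How reads in shared bases were counted is not given. These low counts therefore do not show that Bcl2l2 and Bcl2a1b were fully counted.

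The A1 copies are hard to tell apart by sequence. The coding sequences of Bcl2a1b and Bcl2a1d aligned over 519 bases with 6 mismatches (98.8% identity), and the last 300 bases of their transcripts, the stretch that 3-prime libraries read, aligned over 298 bases with 2 mismatches (99.3%). Their separate counts are therefore uncertain, because reads without a distinguishing base can be split between the copies or dropped. Their promoters are shown because they are as close as the transcripts and because these were the members with the most similar profile over the tissue. The Bcl2a1d stretch ends at the base before its GENCODE gene, the Bcl2a1b stretch is the part of its upstream window that aligns with it, and both come from RefSeq promoter windows of build GRCm38.p6. Capitals mark the bases that differ, which are 1 substituted base and 6 bases that Bcl2a1d lacks. Both hold an AP-1 match (TGANTCA, found in 6.75% of 32851 start-site windows) and an Ets match (AGGAAGT, in 7.69%), which do not overlap each other.
Bcl2a1b promoter, chr9:89199023-89199164, plus strand: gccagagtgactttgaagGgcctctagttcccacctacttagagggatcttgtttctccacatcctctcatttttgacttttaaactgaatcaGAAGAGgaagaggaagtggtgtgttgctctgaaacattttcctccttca
Bcl2a1d promoter, chr9:88731915-88732050, minus strand: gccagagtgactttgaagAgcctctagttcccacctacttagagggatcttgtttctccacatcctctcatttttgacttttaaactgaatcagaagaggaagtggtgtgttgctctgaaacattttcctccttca

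Bcl2, Mcl1 and Bcl2l1 are the members that carried the differences in T cells and enterocytes, so the 250 bases before a RefSeq start site of each (GRCm38.p6) are shown for comparison. Capitals mark GC boxes, the letters GGGCGG on either strand, which were found in 32.7% of all windows searched. The Bcl2 window holds 7 of them, the Mcl1 window 1 and the Bcl2l1 window none. STAT (TTCNNNGAA), AP-1, CRE (TGACGTCA), Ets, kappaB and p53 half-site motifs were searched in the same way on both strands and had no match in these 3 windows. RefSeq gives Bcl2l1 2 other start sites, whose windows lie in GENCODE exons and are not printed, and the window of 1 of them holds a kappaB match. STAT, AP-1, CRE, Ets, kappaB and p53 half-site matches are found in 7.02%, 6.75%, 1.55%, 7.69%, 3.90% and 7.13% of all windows. A missing match says only that these letters are not in the window.
Bcl2, chr1:106714291-106714540, minus strand: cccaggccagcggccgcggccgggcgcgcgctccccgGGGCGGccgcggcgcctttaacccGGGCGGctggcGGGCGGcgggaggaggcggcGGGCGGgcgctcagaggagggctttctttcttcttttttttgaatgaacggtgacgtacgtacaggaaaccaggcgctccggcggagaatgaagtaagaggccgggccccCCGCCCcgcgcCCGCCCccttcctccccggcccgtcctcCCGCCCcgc
Mcl1, chr3:95658471-95658720, plus strand: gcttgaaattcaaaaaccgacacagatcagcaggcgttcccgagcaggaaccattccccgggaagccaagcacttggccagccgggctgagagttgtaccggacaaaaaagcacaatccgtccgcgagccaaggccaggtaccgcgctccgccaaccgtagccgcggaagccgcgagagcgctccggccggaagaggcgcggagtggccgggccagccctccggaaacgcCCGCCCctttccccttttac
Bcl2l1, chr2:152831729-152831978, minus strand: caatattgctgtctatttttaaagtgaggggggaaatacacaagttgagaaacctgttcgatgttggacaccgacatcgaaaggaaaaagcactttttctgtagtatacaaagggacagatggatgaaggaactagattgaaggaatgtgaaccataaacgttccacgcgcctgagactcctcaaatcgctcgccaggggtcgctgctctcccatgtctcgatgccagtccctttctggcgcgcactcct

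In the absorptive class, enterocyte-like cells, the survival genes Bcl2l1 and Mcl1 were higher in FMTg. Bcl2l1 had 444 UMIs in 403 Tg cells and 673 UMIs in 440 FMTg cells, or 32.5 CPM (29.6 to 35.7) against 64.8 CPM (60.0 to 69.9). The FMTg level was 1.99-fold the Tg level, a log2 ratio of 0.99 (0.82 to 1.17). Mcl1 had 2259 and 2816 UMIs, or 165.5 CPM (158.7 to 172.5) against 271.1 CPM (261.2 to 281.3). The log2 ratio of Mcl1 was 0.71 (0.63 to 0.79). For both genes the FMTg level was the higher, and the intervals of the 2 libraries did not overlap. In this class 16.0% of 10466 genes were at least 1.5-fold higher and 11.6% were lower, so 2 higher members of 5 measured stood in a class where such differences were common. Red blood cell markers were at 1.98 CPM in Tg (27 UMIs, 3 of 5 markers seen) and 87.5 CPM in FMTg (909 UMIs, 4 of 5) in these cells, and their part in the result was not tested. With doublets kept, 4 members passed 1.5-fold, against 1 at a mitochondrial limit of 10% and 1 with no limit.

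Bcl2l2, a relative that is expressed in many tissues, had 10.6 and 13.4 CPM, with a log2 ratio of 0.33 (-0.01 to 0.68). Bcl2 had 67 and 45 UMIs, or 4.91 and 4.33 CPM, and the UMIs sat in 21 Tg and 18 FMTg cells with up to 11 in 1 cell. Set against the UMIs of 14 markers of intraepithelial T cells, enterocyte-like cells held 8.40 (6.51 to 10.7) Bcl2 UMIs per 1000 marker UMIs in Tg and 10.7 (7.80 to 14.3) in FMTg. The T cells themselves held 9.49 and 10.0 per 1000. The part of T-cell RNA in the Bcl2 level of enterocyte-like cells was not tested. The same ratio for Bcl2l1 was 55.7 and 160 per 1000 in enterocyte-like cells against 0.183 and 0.155 in the T cells. Bcl2a1b had 16 and 7 UMIs, at 2.01 and 1.66 per 1000 T-cell marker UMIs, near the 1.17 and 1.47 of the T cells. The 1 lower call of Bcl2a1b in this class, at a log2 ratio of -0.80 (-2.32 to 0.56), rests on these 23 UMIs and reached 0.19 under an alternative, and Bcl2a1d had 14 and 4.

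Different clusters held most of the class in the 2 libraries. For Bcl2l1 and Mcl1 the ratio within clusters was smaller than in the whole class. Cluster 3, led by Clca4a, Slc23a4 and the villus-tip gene Ada, held 22 Tg cells (5.46% of the class) and 235 FMTg cells (53.4%). Clusters 4 (Slc5a12, Mbl2 and Lct), 8 (Car4, Reg3a and Reg3g) and 12 (S100g, Slc40a1 and Slc11a2) held the rest. Bcl2l1 was at 62.8 and 89.8 CPM in cluster 3, at 43.0 and 59.6 in cluster 4, at 23.9 and 28.4 in cluster 8, and at 28.5 and 34.0 in cluster 12. The FMTg level was the higher in each of the 4, with log2 ratios of 0.52, 0.47, 0.25 and 0.25, none past 1.5-fold, and the interval excluded equal levels in cluster 4 only (0.17 to 0.78). Mcl1 was at 302 and 349 CPM in cluster 3, 204 and 250 in cluster 4, 139 and 151 in cluster 8, and 141 and 218 in cluster 12. Its log2 ratios were 0.21, 0.29 (0.15 to 0.43), 0.12 and 0.62 (0.36 to 0.88). With both libraries set to the cluster shares of Tg, the log2 ratio of the class was 0.37 for Bcl2l1 and 0.32 for Mcl1, and without cluster 3 it was 0.48 and 0.36, all below 1.5-fold. Both genes were highest in cluster 3 in both libraries, and that cluster made up much more of the FMTg class.

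**Figure D2:**
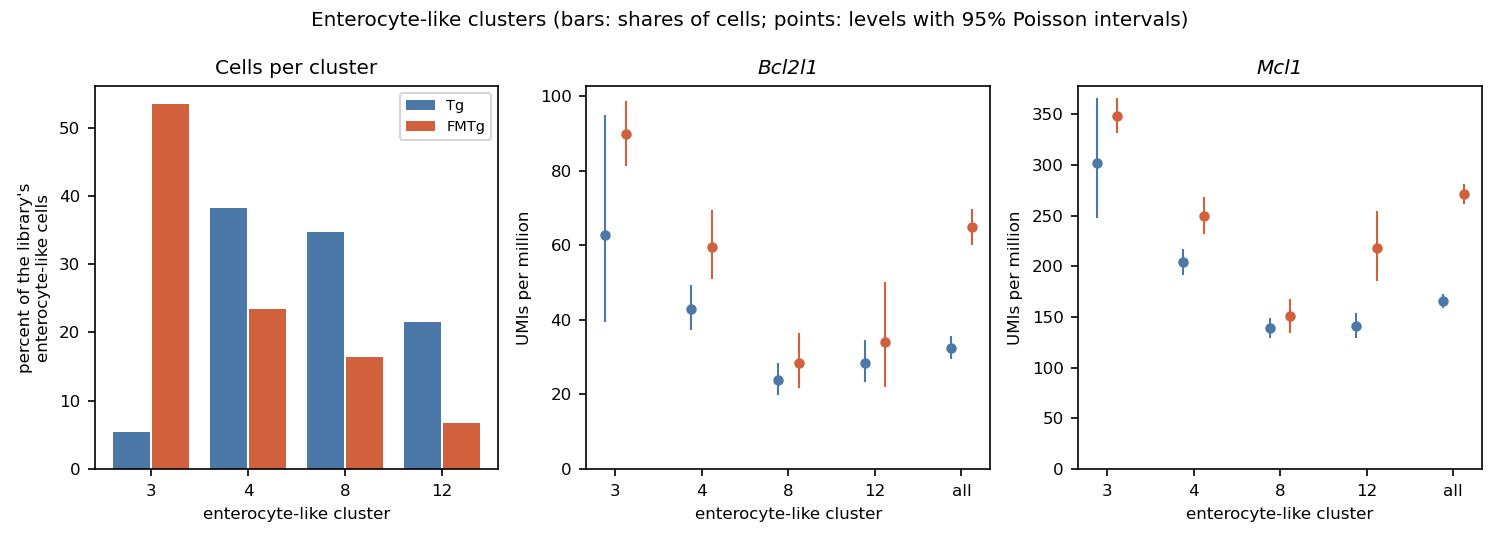
Left, percent of each library's enterocyte-like cells in clusters 3, 4, 8 and 12. Middle and right, CPM of Bcl2l1 and Mcl1 in each cluster and in the whole class (points, with 95% Poisson intervals), Tg in blue and FMTg in red. Cluster 3 holds 5.46% of the Tg and 53.4% of the FMTg cells and has the highest value of both genes. Its Bcl2l1 interval in Tg overlaps that of cluster 4.

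Shares of cells pointed the same way at equal depth. The Tg enterocyte-like cells were the deeper, with a median of 30640 UMIs against 19958, and without correction 59.1% of Tg and 66.4% of FMTg cells had a Bcl2l1 UMI. When each cell was thinned to 2000 UMIs, 7.25% (4.91 to 10.2) of Tg and 15.4% (12.1 to 19.1) of FMTg cells had a Bcl2l1 UMI. For Mcl1 the unthinned shares were 95% and 96.6% and the thinned shares 28.5% (24.1 to 33.2) and 44.1% (39.4 to 48.9). B-like cells, with few Bcl2l1 transcripts, gave thinned Bcl2l1 shares of 0.435% and 1.18% at median depths of 3356 and 3206 UMIs. Without thinning, the share of enterocyte-like cells with a Bcl2 UMI was 5.21% in Tg and 4.09% in FMTg. After thinning it was found in 0 of 400 Tg cells, which at 2000 UMIs per cell allows a share of cells with a UMI of up to 0.750%, and in 3 of 435 FMTg cells. None of the kept classes lacked Mcl1. After thinning, no UMI of any of the 6 genes was found in 65.5% of the Tg cells of this class and in 45.1% of the FMTg cells.

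**Figure D3:**
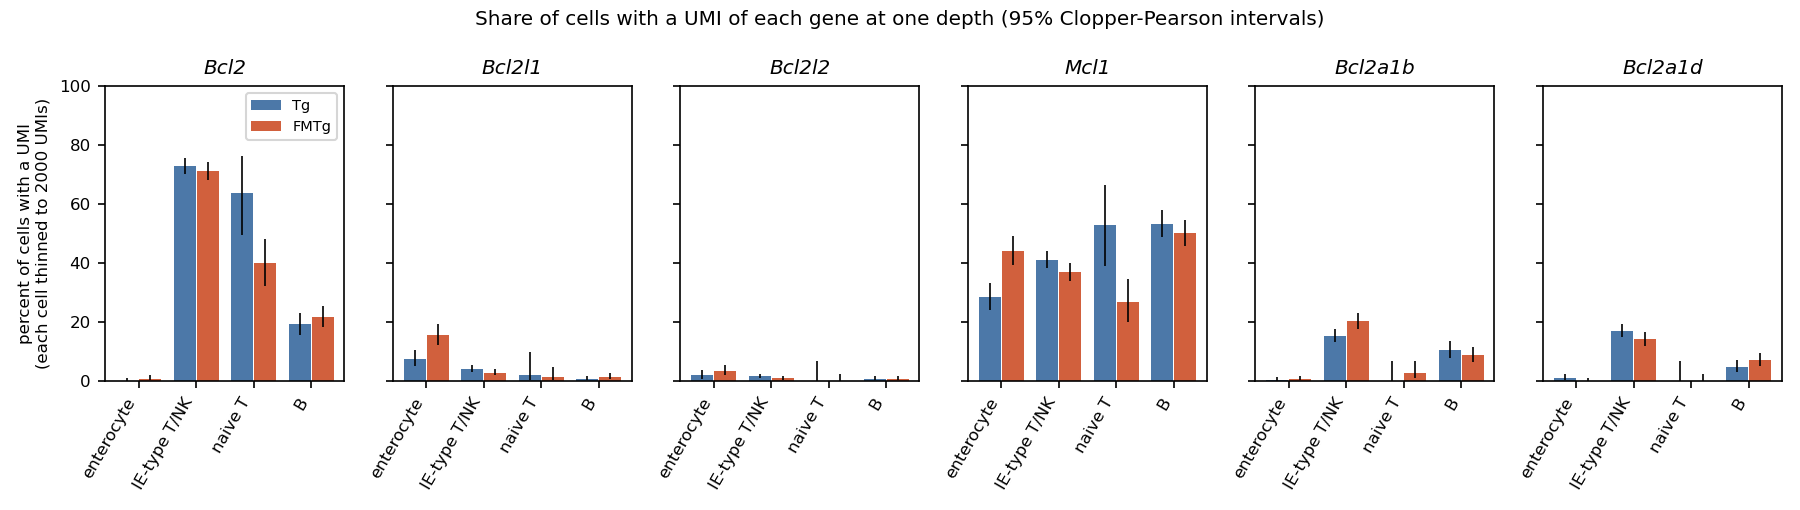
Percent of cells with at least 1 UMI of each gene after every cell was thinned to 2000 UMIs, in 4 classes, Tg in blue and FMTg in red, with 95% Clopper-Pearson intervals. Bcl2l1 and Mcl1 shares are higher in FMTg enterocyte-like cells (15.4% against 7.25%, and 44.1% against 28.5%), and Bcl2 and Mcl1 shares are lower in FMTg naive-type T-like cells.

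The mitochondrial share of a barcode also moved with these levels. On all barcodes that a marker gate placed on the epithelial side, with mitochondrially encoded genes left out of the totals, Bcl2l1 was at 50 CPM in 3555 Tg and 80.8 CPM in 3485 FMTg barcodes, a log2 ratio of 0.69 (0.59 to 0.79). From the bin of 0 to 10% mitochondrial UMIs up to the bin of 50 to 75%, its Tg level was 27.7, 38.03, 72.4 and 74.2 CPM and its FMTg level 19.7, 68.2, 103.4 and 93.0 CPM. FMTg was the higher in 3 of these 4 bins, with log2 ratios of 0.84, 0.52 and 0.33, and the lowest bin gave -0.49 (-1.13 to 0.12). Above 75%, where FMTg had 4 UMIs of the gene, the ratio was -0.33 (-2.32 to 1.23). Mcl1 gave 0.06 in the lowest bin, then 0.57, 0.32 and -0.28 (-0.44 to -0.13). Bcl2l1 and Mcl1 thus had higher levels in barcodes of 25 to 50% mitochondrial UMIs than below 10% in both libraries. The gate pools all epithelial classes, so the mix of cells can differ between bins and libraries. Clustering at a mitochondrial limit of 10% gave 55 Tg and 9 FMTg enterocyte-like cells beside 60 and 20 goblet-like cells. The part of this mix in the bins was not tested. Kept enterocyte-like cells had a median mitochondrial share of 17.2% in Tg and 19.2% in FMTg, and the part of that difference in the result was not tested.

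**Figure D4:**
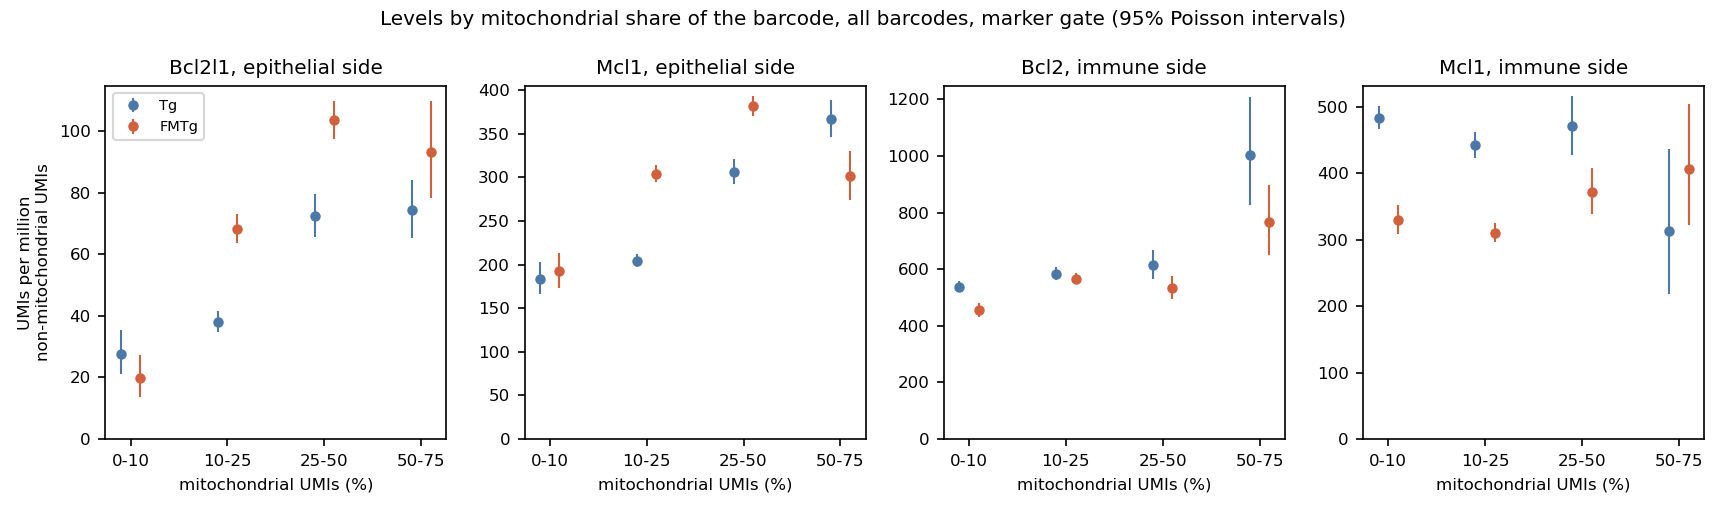
CPM, with mitochondrial UMIs left out of the totals, of Bcl2l1 and Mcl1 on the epithelial side and of Bcl2 and Mcl1 on the immune side of a marker gate, by the percent of mitochondrial UMIs of the barcode, Tg in blue and FMTg in red, with 95% Poisson intervals. Bcl2l1 on the epithelial side is higher in FMTg in 3 of the 4 bins, and Mcl1 on the immune side is lower in FMTg in 3 of the 4. Each side pools its classes. Among kept cells, the classes highest in Mcl1 had fewer FMTg cells (neutrophil-like 53 in Tg and 7 in FMTg, macrophage-like 181 and 41). The part of this mix in the immune-side levels was not tested.

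The secretory classes gave too few UMIs for firm ratios. In goblet-like cells, the mucus-secreting cells (121 Tg and 44 FMTg), Bcl2l1 was at 30.4 and 45.0 CPM, a log2 ratio of 0.57 (-0.07 to 1.18), and Mcl1 at 177 and 235 CPM, a log2 ratio of 0.41 (0.15 to 0.67). None of 3 measured members passed 1.5-fold there, where 14.4% of genes were higher and 19.6% lower. TMM and DESeq2 scaling brought goblet-like Bcl2l1 just past 1.5-fold (0.61 and 0.62), the 50% mitochondrial limit turned it to -0.77, and over 14 alternatives between 0 and 2 members passed. In tuft-like cells, the chemosensory cells (51 and 62), Bcl2l1 had 9 and 17 UMIs with a log2 ratio of 0.63 (-0.62 to 1.98), and Bcl2l2 had 22 and 16 UMIs with -0.75 (-1.77 to 0.25). These 2 of 3 measured members passed 1.5-fold with intervals that included equal levels, beside 10.2% of genes higher and 9.80% lower. Both changed sign under some alternatives, which gave -0.33 to 0.83 for Bcl2l1 and up to 1.91 for Bcl2l2. Mcl1 in tuft-like cells was at 179 and 168 CPM. In enteroendocrine-like cells (16 and 16) Mcl1, the 1 member with 20 UMIs, had 17 and 52 UMIs and a log2 ratio of 0.72 (-0.09 to 1.60), where 29.9% of genes were higher and 14.5% lower. TMM scaling moved the ratios of that class by -0.15, which brings Mcl1 within 1.5-fold. Enterocyte markers were at 3533 CPM in Tg and 18218 CPM in FMTg enteroendocrine-like cells and intraepithelial T-cell markers at 1300 and 75.9 CPM, and their part in the Mcl1 ratio was not tested. In crypt-like cells (11 and 35) Mcl1 was at 136.6 and 144.8 CPM and Bcl2l2 had 3 and 18 UMIs.

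Cluster 6, epithelial cells of low depth that stayed unnamed (169 Tg and 69 FMTg cells), went the other way. Mcl1 was at 253 CPM in Tg and 152 in FMTg there, a log2 ratio of -0.73 (-1.46 to -0.06). Bcl2l1 had 15 and 5 UMIs in the cluster, a log2 ratio of -0.62 (-2.43 to 0.91). Whether these shallow cells are a state of enterocytes or damaged cells was not tested.

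Intraepithelial-type T or NK-like cells, the lymphocytes that patrol between enterocytes, had the highest Bcl2 level of the 13 classes in both libraries, and the next class in the order, naive-type T-like cells, did not overlap with it. Bcl2 was itself among the 10 leading genes of cluster 0, the larger cluster of the class, so its rank there is a description. Bcl2 had 5036 UMIs in 1089 Tg cells and 3737 UMIs in 957 FMTg cells, or 910 CPM (885 to 935) and 813 CPM (787 to 839). The log2 ratio was -0.16 (-0.22 to -0.10), within 1.5-fold. The class again had a different make-up in the libraries. Cluster 0, also led by Il2rb, Gzma and Klrd1, held 79.6% of its Tg and 64.7% of its FMTg cells, and cluster 2, led by Trdc, Ccl4 and Themis, held the rest. Within cluster 0 Bcl2 was at 1024 and 996 CPM, and within cluster 2 at 424 in both libraries, with log2 ratios of -0.04 (-0.11 to 0.03) and 0.00 (-0.18 to 0.18).

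None of the 6 members passed 1.5-fold in the intraepithelial-type class, where 4.14% of 10457 genes were higher and 8.41% lower. Mcl1 was at 257 and 223 CPM, a log2 ratio of -0.21 (-0.32 to -0.09). Bcl2a1b was at 112 and 120 CPM and Bcl2a1d at 100.6 and 82.4, with log2 ratios of 0.10 (-0.07 to 0.26) and -0.29 (-0.48 to -0.10). Bcl2l1, at 17.5 and 12.6 CPM, had a log2 ratio of -0.47 (-0.97 to 0.01), and Bcl2l2, at 7.41 and 5.44 CPM, had -0.45 (-1.23 to 0.31). At 2000 UMIs per cell, 73.0% of Tg and 71.3% of FMTg cells had a Bcl2 UMI, and 41.1% and 36.8% had an Mcl1 UMI. UMIs of at least 2 of the 6 genes were found in 48.8% and 46.3% of these thinned cells, against 4% and 8.97% of enterocyte-like cells.

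**Figure D5:**
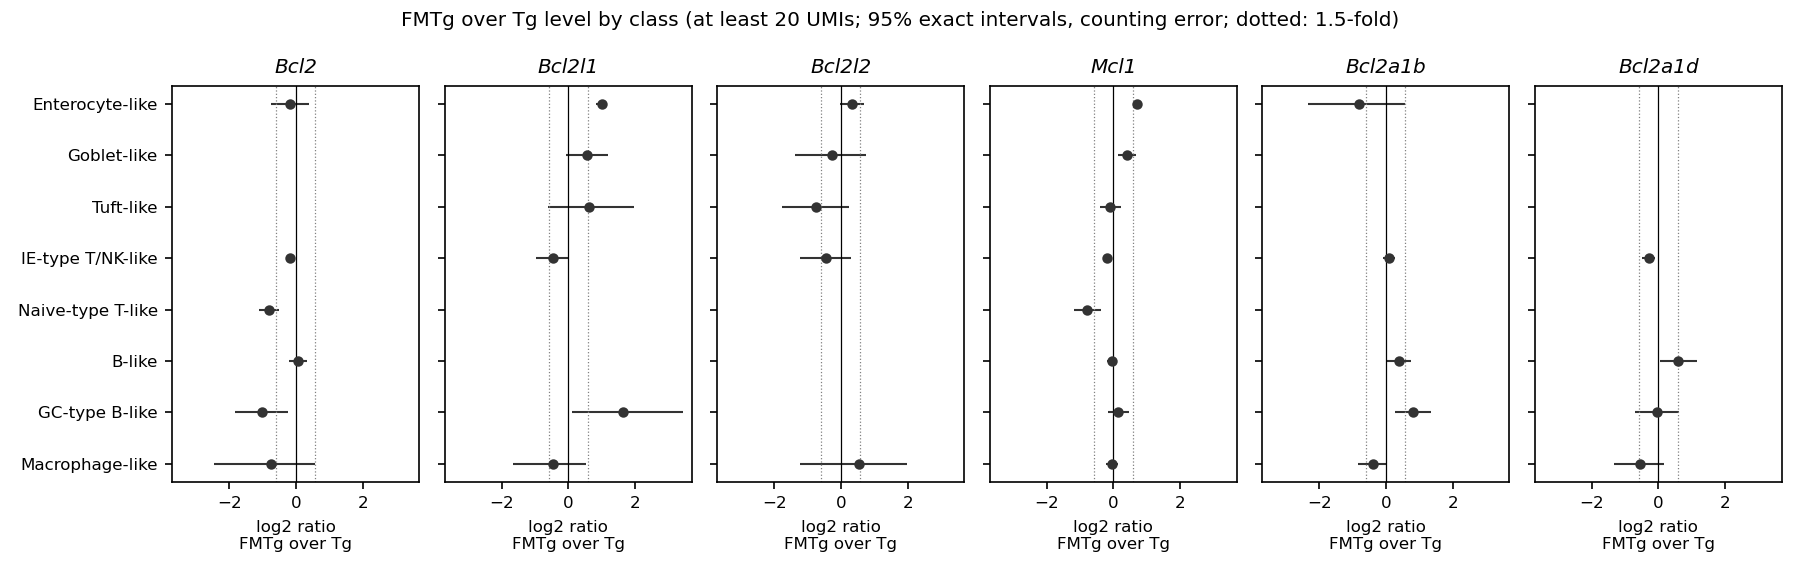
Log2 ratio of the FMTg to the Tg level for each gene in 8 classes, shown where the gene had at least 20 UMIs over both libraries, with 95% exact intervals for counting error; dotted lines mark 1.5-fold. Bcl2l1 (0.99) and Mcl1 (0.71) lie to the right in enterocyte-like cells, and Bcl2 (-0.80) and Mcl1 (-0.78) lie to the left in naive-type T-like cells.

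In naive-type T-like cells, a single cluster led by Lef1, Igfbp4, Tcf7, S1pr1 and the survival receptor gene Il7r, Bcl2 and Mcl1 fell. Bcl2 had 150 UMIs in 59 Tg cells and 225 in 156 FMTg cells, or 581 CPM (492 to 682) and 334 CPM (292 to 381), a log2 ratio of -0.80 (-1.10 to -0.49). Mcl1 had 86 and 131 UMIs, or 333 CPM (267 to 412) and 194 CPM (162 to 231), a log2 ratio of -0.78 (-1.18 to -0.37). Both were lower in FMTg with intervals that did not overlap. They were the 2 members measured in this class, where 11.1% of 4483 genes were higher and 16.6% lower. At 2000 UMIs per cell, 63.6% (49.6 to 76.2) of Tg and 39.9% (32.1 to 48.1) of FMTg cells had a Bcl2 UMI, and 52.7% (38.8 to 66.3) and 26.8% (19.97 to 34.5) had an Mcl1 UMI. Without thinning the shares were 69.5% and 62.2% for Bcl2 and 74.6% and 54.5% for Mcl1. The share of thinned cells with none of the 6 genes was 20% in Tg and 45.1% in FMTg.

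Other measures also differed between the libraries in naive-type T-like cells. The median mitochondrial share of these cells was 10.5% in Tg and 14.1% in FMTg at nearly equal depth (4261 and 4295 UMIs). The summed level of 22 immediate early and heat shock genes was 5443 CPM in Tg and 2919 CPM in FMTg, and 9 of the 14 measured were lower and 0 higher. The summed level of the 14 markers of intraepithelial T cells, another Bcl2-rich class, was 1764 and 1969 CPM, with all 14 seen in both libraries. The part of these in the result was not tested. The mitochondrial and stress gene shifts were not particular to this class. The stress gene sum was 6110 CPM in Tg and 3381 in FMTg B-like cells, and 5061 and 3041 in intraepithelial-type cells. Median mitochondrial shares were 13.6% and 16.9% in B-like cells, and 9.06% and 12.8% in intraepithelial-type cells. Bcl2 and Mcl1 were within 1.5-fold in both of those classes. Their log2 ratios were 0.05 and -0.04 in B-like cells. In intraepithelial-type cells they were -0.16 (-0.22 to -0.10) and -0.21 (-0.32 to -0.09). The part of the mitochondrial and stress gene shifts in the ratios of any class was not tested. Cluster 5, unnamed T cells led by Cd8b1 and Il7r (132 and 119 cells), had Bcl2 at 396 and 261 CPM, a log2 ratio of -0.60 (-0.91 to -0.30), and Mcl1 at 304 and 223 CPM, -0.45 (-0.79 to -0.11). Cluster 15, unnamed T cells led by Izumo1r and Icos (20 and 66 cells), had Bcl2 at 86.0 and 81.1 CPM. With clusters 5 and 15 added to the naive-type class, the log2 ratio was -0.68 for Bcl2 and -0.55 for Mcl1, the latter within 1.5-fold.

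In B-like cells Bcl2 and Mcl1 were at nearly equal levels in the 2 libraries. Bcl2 was at 121 CPM in 480 Tg and 125 CPM in 538 FMTg cells, a log2 ratio of 0.05 (-0.22 to 0.33), and Mcl1 at 390 and 379 CPM, -0.04 (-0.19 to 0.11). Bcl2a1d, an A1 copy, had 46 and 77 UMIs, or 26.6 (19.5 to 35.5) and 39.9 (31.5 to 49.9) CPM. Its log2 ratio of 0.59 (0.04 to 1.15) was just past 1.5-fold, with overlapping intervals of the levels, and it was the 1 of 4 measured members that was called, beside 6.01% of 8564 genes higher and 10.8% lower. It was within 1.5-fold in 6 of 13 alternatives, which gave 0.20 to 0.78. These were the 50% mitochondrial limit, no limit, a minimum of 1000 UMIs, doublets kept, clustering resolution 0.5 and equal weight per cell. Bcl2a1b was at 63.6 and 82.9 CPM, 0.38 (0.02 to 0.75). Both copies were concentrated in cluster 14, a smaller set led by the activation genes Il4i1, Cd83 and Cd40 (42 and 59 cells). Bcl2a1b was at 197 and 301 CPM in cluster 14 against 48.3 and 49.6 in cluster 1, the bulk of the class. Mcl1 in cluster 14 was at 292 and 438 CPM, a log2 ratio of 0.58 (0.10 to 1.09). The summed level of red blood cell markers was 19.1 CPM in Tg and 1125 CPM in FMTg B-like cells, and its part in these ratios was not tested.

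In germinal-centre-type B-like cells, a cycling class led by histone genes and Mef2b (76 and 74 cells), members moved in both directions. Bcl2 had 43 and 22 UMIs, or 50.6 and 25.1 CPM, a log2 ratio of -1.01 (-1.82 to -0.24). The intraepithelial T-cell markers were at 7363 CPM in Tg and 2214 CPM in FMTg cells of this class, and Bcl2 stood at 6.87 (4.97 to 9.25) and 11.3 (7.11 to 17.2) UMIs per 1000 of their UMIs, against 9.49 and 10.0 in the T cells. The part of T-cell RNA in the lower Bcl2 level was not tested. Bcl2a1b had 46 and 83 UMIs, or 54.1 and 94.8 CPM, a log2 ratio of 0.81 (0.27 to 1.36), while Bcl2a1d had 41 and 41 UMIs and a log2 ratio of -0.04 (-0.70 to 0.62). Bcl2l1 had 5 and 16 UMIs, a log2 ratio of 1.64 (0.12 to 3.44). Called members numbered 2 higher and 1 lower of 5 measured, beside 9.47% of 7278 genes higher and 16.9% lower. Over the alternatives Bcl2a1b lay between 0.18 and 1.57, within 1.5-fold at the 10% mitochondrial limit (0.18) and with 1000 variable genes (0.45). The number of members past 1.5-fold was 0 at that limit, 1 with 1000 variable genes and 1 at a gene minimum of 100 UMIs. Mcl1 was at 193 and 213 CPM.

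Myeloid cells had the highest Mcl1 levels. Neutrophil-like cells, which live briefly and depend on Mcl1 in textbook accounts, were at 3069 CPM (2766 to 3396) in 53 Tg and 2546 CPM (1819 to 3467) in 7 FMTg cells. Macrophage-like cells came next, at 844 and 825 CPM in 181 and 41 cells, with a log2 ratio of -0.03 (-0.22 to 0.15). All 53 and all 7 neutrophil-like cells had an Mcl1 UMI, and none had a Bcl2 UMI; 0 of 34 Tg cells thinned to 2000 UMIs allows a share of cells with a UMI at that depth of up to 8.82%. Bcl2a1b had 6 UMIs in the Tg and 9 in the FMTg cells of this class, 6 of the 9 in 1 cell. Macrophage-like cells held Bcl2a1b at 222 and 169 CPM and Bcl2a1d at 77.6 and 53.3 CPM, with log2 ratios of -0.40 (-0.82 to 0.00) and -0.54 (-1.34 to 0.17). The 1 of 6 members past 1.5-fold was Bcl2, with 49 and 5 UMIs and a log2 ratio of -0.76 (-2.44 to 0.56), where 13.3% of genes were higher and 17.4% lower. In cluster 9, the larger cluster of the class, Bcl2 had 30 and 5 UMIs and a log2 ratio of 0.11 (-1.61 to 1.49), and the other 19 Tg UMIs lay in cluster 19, where FMTg had none. The number of members past 1.5-fold ranged from 0 to 3 and moved in 8 of 14 alternatives. Macrophage-like Bcl2 was at 6.43 and 6.75 per 1000 T-cell marker UMIs, against 9.49 and 10.0 in the T cells, and the part of T-cell RNA was not tested.

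Dendritic-like cells had the highest A1 levels of the Tg classes, with Bcl2a1b at 399 and Bcl2a1d at 456 CPM in 23 cells. The 6 FMTg cells had 184 and 170 CPM, from 13 and 12 UMIs. The log2 ratios were -1.11 (-2.07 to -0.28) and -1.42 (-2.41 to -0.57), and Mcl1, at 591 and 354 CPM, had -0.74 (-1.41 to -0.13). All 3 measured members were thus lower in FMTg, in a class where 39.9% of genes were lower and 13.3% higher by the same rule. TMM scaling moved all ratios of this class by 0.30, which brings Mcl1, but not the A1 copies, within 1.5-fold. The alternatives on filters, doublets and clustering were not run for this class. Epcam, an epithelial marker, was at 142 CPM in Tg and 425 CPM in FMTg dendritic-like cells. Macrophage markers were at 1755 and 2849 CPM and B-cell markers at 509 and 893 CPM. The part of these in the ratios was not tested. With 6 cells, differences between subtypes of dendritic cells cannot be told apart from differences within them.

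Beyond the 6 members, the other relatives were scarce. Bcl2a1a had 116 and 53 UMIs in all kept cells, Bcl2a1c 17 and 8, and Bcl2l10 0 and 1. By class, Bcl2a1a was measured in macrophage-like cells, with 36.8 and 50.3 CPM and a log2 ratio of 0.45 (-0.40 to 1.23). In dendritic-like cells Bcl2a1a had 26 and 11 UMIs, or 92.5 and 155.9 CPM, a log2 ratio of 0.75 (-0.41 to 1.82), opposite in sign to Bcl2a1b and Bcl2a1d in the same cells.

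The opponents of the survival proteins were measured in the same cells. In enterocyte-like cells the effectors Bax and Bak1 had log2 ratios of 0.35 (0.27 to 0.43) and 0.33 (0.24 to 0.43), and the relative Bok rose from 19.7 to 52.5 CPM (1.41), so 1 of 3 effectors passed 1.5-fold. Of 6 measured BH3-only genes, 2 rose and 1 fell. Pmaip1 (Noxa), whose protein binds Mcl1, was at 39.9 and 89.0 CPM, a log2 ratio of 1.16 (1.003 to 1.31). Bid, with 42 and 61 UMIs, had 0.93 (0.34 to 1.54), and Bad had -0.67 (-0.82 to -0.51). Bbc3 (Puma) was at 9.74 and 12.8 CPM, and Bcl2l11 (Bim) at 4.47 and 6.16. Of 9 caspase inhibitors, 3 were higher, Xiap (0.74), Birc3 (0.62) and Naip1 (1.11), whose family is known in mice for sensing bacterial proteins. Of 8 apoptosome and caspase genes, 0 were higher and 2 lower, with a median log2 ratio of -0.31. These counts stand beside 16.0% of all genes higher and 11.6% lower in this class. None of 5 measured genes for turnover of the Mcl1 protein passed 1.5-fold; Huwe1, a ubiquitin ligase of Mcl1, had 0.13.

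Genes of pathways that are known to act on the members were measured in the same classes, and differences between classes were not tested. In enterocyte-like cells 17 of 28 p53 targets were higher and 2 lower, with a median log2 ratio of 0.73 beside 0.06 for all genes. The lower ones were Sesn1 (-0.84) and Ddb2 (-0.83, from 20 UMIs), and Cdkn1a (p21) rose from 533 to 915 CPM. Of 8 NF-kB genes 5 were higher and 0 lower (median 0.83), namely Relb (1.04), Nfkb2 (1.32), Rela (0.79), Tnfaip3 (0.86) and Icam1 (2.53, from 27 UMIs). Of 12 genes of survival cytokine signalling, 3 were higher, the feedback inhibitor gene Socs3 (2.11) and, from 31 and 38 UMIs, the lymphocyte genes Il7r (3.62) and Il2rg (0.70). The 1 that was lower was Il2rb (-1.65), also a lymphocyte gene. Of 22 interferon genes, 16 were higher (median 1.25). The heat shock genes Hspa1a and Hspa1b fell by 4.12 and 3.21, and the intraepithelial T-cell markers were at 585 CPM in Tg and 405 in FMTg enterocyte-like cells. By the same rule 16.0% of all genes were higher and 11.6% lower in enterocyte-like cells. These lists are given for context and share the cluster make-up described above.

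In intraepithelial-type T or NK-like cells the p53 targets were also higher in 13 of 26 cases with 0 lower (median 0.59, all genes -0.08), and Cdkn1a rose from 40.3 to 100 CPM (1.31). Bax was at 192 and 284 CPM, 0.56 (0.45 to 0.68), just within 1.5-fold. Of 7 BH3-only genes 2 were higher, Pmaip1 (0.64) and Bmf (0.75), and Bcl2l11, at 99.4 and 128 CPM, had 0.37 (0.20 to 0.54). Bcl2 itself was within 1.5-fold in these cells, as given above. Of 12 survival cytokine genes 1 was higher, Il7r (10.5 and 33.9 CPM, 1.69), and 2 were lower, the kinase gene Jak3 (-1.05) and Tnfsf13b (-1.04). None of 9 NF-kB genes passed 1.5-fold. Of 8 caspase inhibitors 0 were higher and 2 lower, and none of 8 apoptosome and caspase genes passed 1.5-fold. In this class 4.14% of all genes were higher and 8.41% lower. The interleukin receptor chain Il2rb was at 638 and 472 CPM, -0.43 (-0.51 to -0.36).

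In B-like cells 4 of 22 p53 targets were higher, namely Phlda3 (1.65), Sesn2 (3.09), Xpc (0.67) and Rrm2b (0.61), and 1 was lower, Plk2 (-0.71), and Cdkn1a was at 46.8 and 46.1 CPM. None of the effectors passed 1.5-fold there, with Bax at 0.21 (-0.05 to 0.47), and of 5 BH3-only genes 1 was higher, Bbc3 (Puma), with 6 and 21 UMIs and a log2 ratio of 1.65 (0.29 to 3.25). By the same rule 6.01% of all genes were higher and 10.8% lower in B-like cells. Tnfrsf13c, the receptor for the B-cell survival factor BAFF, was at 483 and 332 CPM, -0.54 (-0.69 to -0.39). In naive-type T-like cells 3 of 12 p53 targets were higher, Ccng1 (0.61), Ei24 (1.49) and Ddit4 (1.16), and 2 were lower, Mdm2 and Cdkn1a, the latter with 10 and 14 UMIs (-0.90). Bcl2l11 (Bim), the 1 BH3-only gene measured there, had 3 and 23 UMIs and a log2 ratio of 1.55 (-0.17 to 3.93). Of all genes, 11.1% were higher and 16.6% lower in naive-type T-like cells. Mdm2 was at 106 and 204 CPM in enterocyte-like cells (0.94), 82.0 and 97.0 in intraepithelial-type cells (0.24), 49.1 and 43.0 in B-like cells (-0.19), and 69.8 and 29.7 in naive-type T-like cells (-1.23, from -2.23 to -0.23).

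The spread of each member over the tissue was compared with that of 8180 genes by Pearson correlation of log2(CPM + 10) over 21 profiles of a class in a library. These points share libraries and depth, and the values are a description. Bcl2 was most like H2-Q7 (r = 0.95), Rasal3 and Gbp4. Bcl2l1 was most like Por (0.89), Prr13 and Fosl2, and Bcl2l2 most like Vamp3 (0.87), Slc35a2 and Tmbim4. Mcl1 was most like Hp (0.93), Ccr1 and Wfdc17, and Bcl2a1b most like Nckap1l (0.94), Myo1g and Pip4k2a. Bcl2a1d was most like Bcl2a1b (0.94), followed by Napsa and Dok1, and the near-identical copies printed above can share reads. Among the members, Bcl2 and Bcl2l2 had the most opposite profiles (-0.71), and Bcl2 and Bcl2l1 had -0.50.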

How the data were processed

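Libraries were made from cell suspensions of fresh small intestine with the 10x 3-prime chemistry, per the labels' protocols. The deposited files hold UMI counts per gene and cell, and the submitters' processing notes name CASAVA 1.8.1, Cell Ranger 3.0 and the build mm10 for how the authors made them. Which gene annotation was used was not given in the sources used here.

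Barcodes under 500 UMIs or 300 genes, or over 25% mitochondrial UMIs, were removed. Simulated doublets were scored per library and the expected share removed (154 Tg and 144 FMTg cells), because the automatic threshold marked 2 and 13. The rest were clustered (2000 variable genes, 30 components, 20 neighbours, Leiden at resolution 1; scanpy 1.11.5, leidenalg 0.10.2, Python 3.11.15), giving 23 clusters. Clusters were named "-like" from marker lists. UMIs were summed per class and library. Levels carry exact Poisson intervals, ratios exact conditional binomial intervals and shares exact Clopper-Pearson intervals (scipy 1.17.1). PCR duplicates are collapsed by the UMIs. The script was tested on simulated data.

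The named genes were the 6 members, the 4 most abundant and the 4 most changed genes of each list (at least 50 UMIs) in 3 classes, Mdm2, Trp53 and Cdkn1a, and the 3 most similar genes per member. Other names were chosen after their values were seen (leading genes of clusters and list genes outside this rule). The members and lists were chosen with earlier results of these data known. Alternatives changed filters, clustering and scaling, with TMM factors from edgeR 4.0.16 and size factors from DESeq2 1.42.0 (R 4.3.3) used for scaling only. The alternatives on cluster weights and unnamed clusters were chosen after seeing the data.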

Additional observations from a re-analysis of the deposited data

Results flagged for a closer look

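Members moved in opposite directions in different cell classes, with intervals that excluded equal levels on both sides. The difference between classes was not tested, because there was 1 library per genotype. Mcl1 had a log2 ratio of 0.71 in enterocyte-like cells, -0.78 in naive-type T-like cells and -0.74 in dendritic-like cells. Bcl2a1b had 0.81 in germinal-centre-type B-like cells and -1.11 in dendritic-like cells. Bcl2a1d had 0.59 in B-like cells and -1.42 in dendritic-like cells, of which FMTg had 6. The B-like Bcl2a1d ratio was within 1.5-fold in 6 of 13 alternatives.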

How the results depend on the processing

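Of 481 log2 ratios recomputed under alternatives for 34 gene and class pairs, 445 stayed within the counting interval of the reported value, 35 moved beyond it, and 1 that had passed 1.5-fold with an interval that excluded equal levels changed sign. That 1 was Bcl2l1 in enterocyte-like cells at a mitochondrial limit of 10%, which left 55 Tg and 9 FMTg cells and gave -0.87 (-6.30 to 1.91). Of those past 1.5-fold whose intervals included equal levels, 3 also changed sign: tuft-like Bcl2l2 (-0.75, to 1.91 at the 10% limit), tuft-like Bcl2l1 (0.63, down to -0.33) and enterocyte-like Bcl2a1b (-0.80, up to 0.19). Bcl2l1 in that class, reported at 0.99, was 0.77 at a limit of 50%, 0.82 with no limit, 0.77 by the marker gate, 0.48 without cluster 3, 1.29 without cluster 4 and 0.37 at the Tg cluster weights. Mcl1 there, reported at 0.71, was 0.62 at the 10% limit, 0.49 at 50%, 0.46 with no limit, 0.63 with totals that leave out mitochondrial and the 20 most abundant genes, 0.53 by the marker gate, 0.36 without cluster 3, 0.93 without cluster 4 and 0.32 at the Tg cluster weights. The number of enterocyte-like members past 1.5-fold, 3 as reported, was 1 at the 10% limit, 1 with no limit and 4 with doublets kept. This number does not say which members passed. Neither Bcl2l1 nor Mcl1 passed without cluster 3 or at the Tg cluster weights. Enterocyte-like Bcl2, reported at -0.18, lay between -1.39 and 0.41 over 19 alternatives. Bcl2 in intraepithelial-type cells, reported at -0.16, was 0.018 at the 10% limit, -0.043 at resolution 0.5, -0.079 with TMM and -0.082 with DESeq2 size factors. The number of members past 1.5-fold there, 0 as reported, was 1 at resolution 0.5 and 3 by the marker gate, which takes in all immune cells. In naive-type T-like cells Bcl2 lay between -0.91 and -0.67 in all 14 alternatives, and Mcl1 was -1.30 at the 10% limit (25 and 21 cells); 1 member rather than 2 passed with the unnamed T clusters added. In B-like cells Bcl2, reported at 0.05, was -0.79 at the 10% limit (96 and 31 cells). The number past 1.5-fold there, 1 as reported, was 3 at that limit and 0 at the 50% limit, with no limit, at 1000 UMIs, with doublets kept, at resolution 0.5 and with equal weight per cell. The cause of these shifts was not tested. TMM scaling moved all ratios by -0.07 in enterocyte-like cells, by 0.12 in naive-type T-like cells, and by 0.30 in dendritic-like cells. Of 48 thinned shares, 33 moved beyond their interval at 1000 UMIs. No paired analysis was possible because each genotype had 1 library. Few cells limit the ratios of dendritic-like, neutrophil-like, enteroendocrine-like and crypt-like cells. These classes were not among the 34 recomputed pairs.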
